A study of Mus musculus with 6 samples.

Results

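The genes described here encode metabotropic glutamate receptors other than mGluR6: Grm5 of group I, Grm2 and Grm3 of group II, and Grm4, Grm7 and Grm8 of group III. They were taken by symbol, from the probe sets whose platform annotation gave exactly 1 of these names, and the rule found 7 probe sets for 6 genes among 23521 probe sets with 1 symbol (22180 genes). All 6 genes passed the filter for tested genes, a log2 value of 5 or more on 3 or more of the 6 arrays, as did 15619 genes in all. Gene expression was measured on Affymetrix mouse gene arrays in total RNA of whole retina, both eyes of each mouse pooled, from male mice at postnatal day 17. The 3 knockout samples had the genotype Chx10Cre+/-;Atrx flox/y and the 3 wildtype samples, littermates, had the genotype Chx10Cre-/-;Atrx flox/y. Every animal therefore carried the floxed allele of Atrx, a chromatin remodeller encoded on the X chromosome, and Cre was present in the knockout animals alone, so effects of carrying Cre and of losing Atrx cannot be told apart. Chx10 is active in retinal progenitor cells and later in bipolar cells, and the Cre line acts through its promoter. By the series' design text, the loss of amacrine and horizontal cells in the knockout mice peaks at this age, and the comparison asks how gene expression differs at that time.

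Metabotropic glutamate receptors are G protein-coupled receptors that sense glutamate through a large extracellular domain and act more slowly than glutamate-gated channels. Group I receptors couple to Gq and phospholipase C and sit mostly on postsynaptic membranes. Group II and group III receptors couple to Gi/o, lower cyclic AMP and damp transmitter release, many of them from presynaptic terminals. In the retina mGluR2 is known from starburst amacrine cells, the cholinergic interneurons of the inner retina, mGluR7 from bipolar cell terminals and mGluR8 from photoreceptor terminals.

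The sequences before the transcription start of Grm2, Grm8 and Grm3 are shown because these genes had the lowest log2 changes among the receptors. Each is the stretch of 150 bases that ends at the base before the start, taken from RefSeq on GRCm38.p6, minus strand, written 5′ to 3′, with runs of at least 4 G or 4 C in capitals. These runs are marked because ATRX protein is known to bind G-rich repeats; no binding was measured in this series.
Grm2, chr9:106656110-106656259: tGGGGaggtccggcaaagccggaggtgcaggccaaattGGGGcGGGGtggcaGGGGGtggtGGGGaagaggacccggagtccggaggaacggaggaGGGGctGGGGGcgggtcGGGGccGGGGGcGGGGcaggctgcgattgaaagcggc
Grm8, chr6:28135147-28135296: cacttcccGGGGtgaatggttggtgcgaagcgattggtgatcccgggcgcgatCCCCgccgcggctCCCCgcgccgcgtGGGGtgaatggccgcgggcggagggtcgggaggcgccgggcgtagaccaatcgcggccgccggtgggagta
Grm3, chr5:9725353-9725502: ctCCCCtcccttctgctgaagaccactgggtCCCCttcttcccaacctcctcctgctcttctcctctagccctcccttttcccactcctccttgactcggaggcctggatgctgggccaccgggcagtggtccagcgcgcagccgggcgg
The Grm2 stretch held 10 such runs, all of G on the strand shown, and 0.35% of the 32851 RefSeq promoter entries held as many runs of either base in the same stretch. The Grm8 stretch held 4 runs, 2 of them of G, a number reached by 18.6% of entries. The Grm3 stretch held 2 runs, both of C, a number reached by 48% of entries. The Grm8 stretch held 24 CG dinucleotides, the Grm2 stretch 12 and the Grm3 stretch 6. Over the 250 bases before the start, the GC content was 71.2% for Grm2, 68.4% for Grm8 and 62.4% for Grm3, against a median of 52.4% over all entries. A pattern of 4 GGG tracts separated by 1 to 7 bases, searched on both strands of these 250 bases, was present for the Grm2 and Grm8 entries shown, absent for Grm3 and present in 16.7% of all entries. RefSeq gave 3 entries for Grm8, of which 2 held the pattern; the one that lacked it had a GC content of 43.6%, and the other one not shown had 54.4%. Both RefSeq entries of Grm7, the receptor gene with a positive log2 change, held this pattern as well. Their GC contents were 62.0% and 65.2%, with 4 and 2 runs in the 150 bases, numbers reached by 18.6% and 48% of entries. The windows of both Grm7 entries, and of the 2 Grm8 entries not shown, lay inside the RefSeq span of their gene. The windows shown lay outside it, so the windows are not alike in kind. No promoter entry was matched for Grm4 and Grm5. The E-box CAGCTG, a binding motif of many basic helix-loop-helix factors, and TAATCC, a motif of photoreceptor homeobox factors, were searched on both strands and were found in none of the 7 promoter entries of Grm2, Grm3, Grm7 and Grm8, and in 13% and 6.25% of all entries. These matches describe the letters of the windows and were not tested against the expression values.

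None of the 6 receptor genes passed the test over all genes, an adjusted p under 0.05 in limma's moderated test with Benjamini-Hochberg adjustment, which 0.826% of the tested genes passed. Grm2, Grm8 and Grm3 were lower in knockout at an unadjusted p under 0.05, as were 6.5% of all tested genes, and 13.5% of all genes passed that mark in either direction. The log2 change, knockout minus wildtype, was below 0 for 5 of the 6 receptor genes and above 0 for Grm7. Its median over the 6 was -0.22, beside 0.003 over all tested genes, 49.1% of which lay below 0. For Grm2 and Grm8 the knockout and wildtype values did not overlap. Among all tested genes 20.3% had groups without overlap, 9.58% with knockout the lower. In whole-retina RNA a smaller number of cells that express a gene and less RNA per cell cannot be told apart.

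2 of the 6 arrays stood apart by their content of lens RNA. The 14 lens genes had mean log2 values of 11.13 (wildtype 1) and 9.70 (knockout 2), while the remaining 4 arrays lay between 5.71 and 6.10. The crystallin genes Cryaa and Cryba1 reached 13.36 and 13.23 on wildtype 1. Atrx had log2 values of 8.42, 8.72 and 8.33 in the knockout samples and 9.04, 8.86 and 9.17 in the wildtype samples, a log2 change of -0.53 (SE 0.12, adjusted p = 0.115 in limma's test). Markers of rods had list means of 11.97 to 12.07 on the 6 arrays, and those of bipolar cells and Muller glia were likewise present on every array (8.56 to 8.68 and 9.67 to 9.78). Array medians lay between 5.57 and 5.64. The labels do not say whether the samples were handled in 1 batch. The number of arrays limits the precision, and the median 95% interval of a log2 change reached 0.22 to each side.

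**Figure D1:**
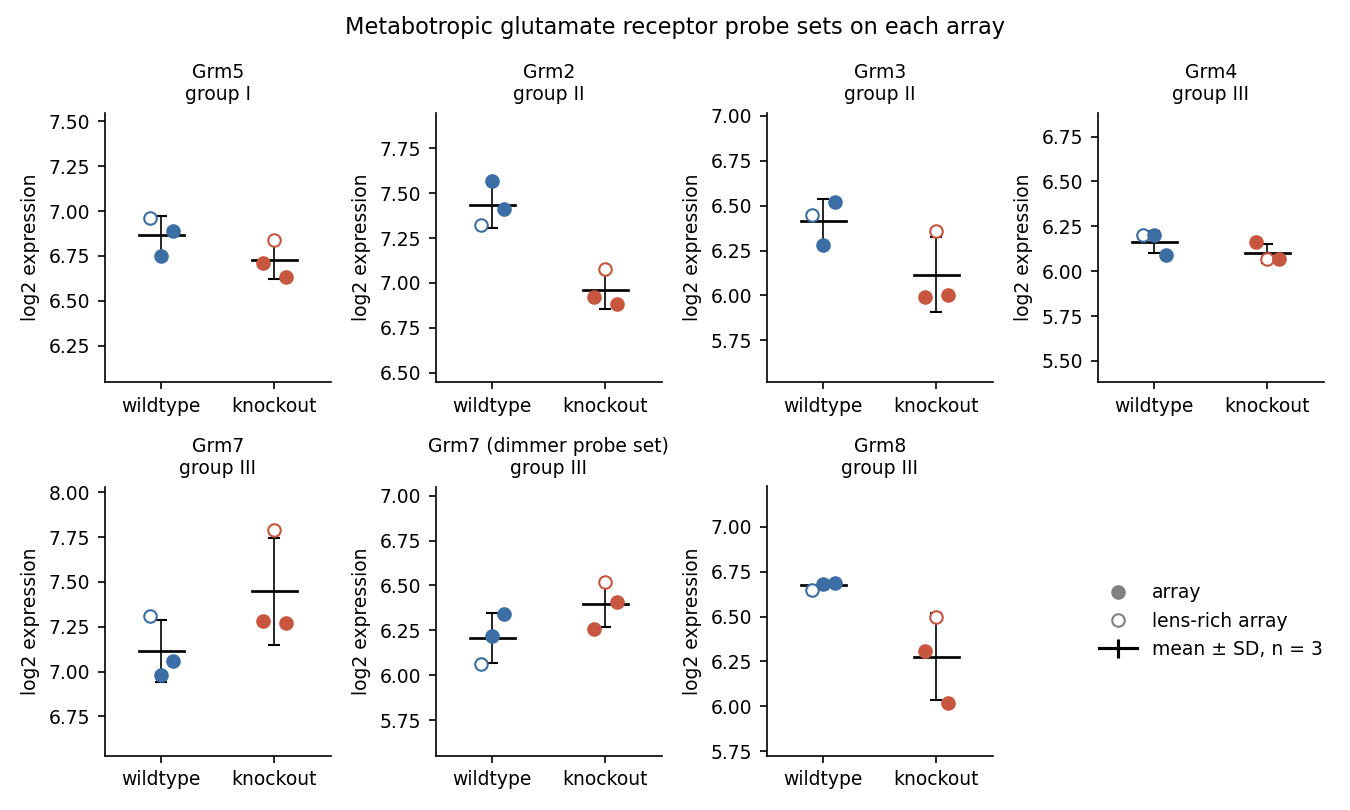
Log2 expression (vertical axes, each spanning 1.5 log2 units) of the 7 receptor probe sets in 3 wildtype and 3 knockout retina samples. Points are arrays, open for the lens-rich arrays, and bars are mean ± SD; the groups are apart for Grm2 and Grm8, while Grm4 lies between 6.07 and 6.20 on every array.

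The group II receptors both had lower means in knockout. Grm2 encodes mGluR2, an inhibitory autoreceptor. Its log2 values were 7.32, 7.57 and 7.41 on the 3 wildtype arrays and 6.92, 7.08 and 6.88 on the 3 knockout arrays. Each knockout value lay below each wildtype value. The means were 6.96 ± 0.10 in knockout and 7.43 ± 0.12 in wildtype (SD, n = 3 each), a log2 change of -0.47 (SE 0.094, 95% interval -0.69 to -0.26), which is 1.39-fold. The adjusted p was 0.0759 in limma's test, and the exact permutation p, 2-sided, was 0.1, the smallest that 3 against 3 allows. A change of larger size in either direction was found for 1.81% of all tested genes. Among the 6 receptor genes Grm2 had the change of largest size and the lowest p. It passed the threshold when the spread was fitted robustly with an intensity trend (adjusted p = 0.0311) and when the floor of the filter was raised to 6 (adjusted p = 0.0397). Over its 17 alternatives the adjusted p ran from 0.0311 to 0.3.

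Grm3 encodes mGluR3, the group II receptor that also responds to the peptide transmitter N-acetylaspartylglutamate (NAAG) and is found on glia as well as neurons. The wildtype values were 6.45, 6.28 and 6.52, and the knockout values were 5.99, 6.36 and 6.0. Knockout 2 lay above wildtype 2, so the groups overlapped, while knockout 1 and knockout 3 lay below every wildtype array. The log2 change was -0.30 (SE 0.12, 95% interval -0.57 to -0.03, adjusted p = 0.324 in limma's test). Knockout 2 was the only knockout array above a wildtype array, so without it the groups of Grm3 did not overlap by construction. The share of all genes without overlap in that setting was not counted. The log2 change without knockout 2 was -0.42 and the adjusted p in limma's test was 0.104. Without knockout 1, knockout 3, wildtype 1 or wildtype 3 the unadjusted p of Grm3 was 0.109, 0.11, 0.0833 and 0.112.

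The group III receptors did not share a direction. Grm8 encodes mGluR8, a presynaptic receptor with a high affinity for glutamate. Its wildtype values lay close together, at 6.65, 6.68 and 6.69, and its knockout values were spread over 6.31, 6.50 and 6.02. All 3 knockout values were below all 3 wildtype values, and the standard deviation was 0.24 in knockout against 0.02 in wildtype. The log2 change was -0.40 (SE 0.12, 95% interval -0.67 to -0.12, adjusted p = 0.204 in limma's test), or 1.32-fold. Leaving out knockout 3, the lowest array, gave a log2 change of -0.27, and leaving out knockout 2, the highest knockout array, gave -0.51 with an adjusted p of 0.0813. A further probe set is annotated to both Grm8 and Mir592, a microRNA; it was too dim for the filter, with values of 4.07 to 4.78 on the 6 arrays, and was not tested.

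Grm7 encodes mGluR7, a receptor of presynaptic active zones with a low affinity for glutamate. The brighter of its 2 probe sets had wildtype values of 7.31, 6.98 and 7.06 and knockout values of 7.28, 7.79 and 7.27. Knockout 2 stood above all other arrays, while knockout 1 and knockout 3 lay between the wildtype values. The log2 change was 0.33 (SE 0.15, 95% interval -0.02 to 0.69, adjusted p = 0.394 in limma's test), and without knockout 2 it was 0.16. Wildtype 1 was the only wildtype array above any knockout array. Without it the groups of this probe set did not overlap by construction, with knockout the higher. The same held without both lens-rich arrays. The share of all genes without overlap in these settings was not counted. The dimmer probe set had wildtype values of 6.06, 6.22 and 6.34 and knockout values of 6.26, 6.52 and 6.41. Over all 6 arrays its groups overlapped too, with a log2 change of 0.19 (SE 0.11, adjusted p = 0.576 in limma's test over 25961 probe sets). They still overlapped without wildtype 1 and without both lens-rich arrays, as knockout 1 (6.26) lay below wildtype 3 (6.34). Both probe sets of Grm7 thus had a positive estimate, and neither passed the test.

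Grm4 encodes mGluR4, the third receptor of group III measured here. Its values were 6.20, 6.20 and 6.09 in wildtype and 6.16, 6.07 and 6.07 in knockout. The 6 arrays lay within a narrow band and the groups overlapped. The log2 change was -0.07 with a 95% interval of -0.24 to 0.11, and the change estimated for Grm2 lies outside this interval. Folds of dim probe sets are compressed, and how far this probe set lies above background was not measured. The interval therefore describes the probe set signal and does not exclude a larger change of the transcript. A larger size of change than that estimated for Grm4 was found for 65.2% of all tested genes.

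Grm5 encodes mGluR5, the group I receptor, which raises intracellular calcium through Gq and inositol trisphosphate. Its wildtype values were 6.96, 6.75 and 6.89, and its knockout values were 6.71, 6.84 and 6.63. Knockout 2 lay above wildtype 2, so the groups overlapped. The log2 change was -0.14 (SE 0.09, 95% interval -0.35 to 0.06, adjusted p = 0.531 in limma's test). Without knockout 2, the only knockout array above a wildtype array, the groups of Grm5 did not overlap by construction, and the log2 change was -0.20.

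**Figure D2:**
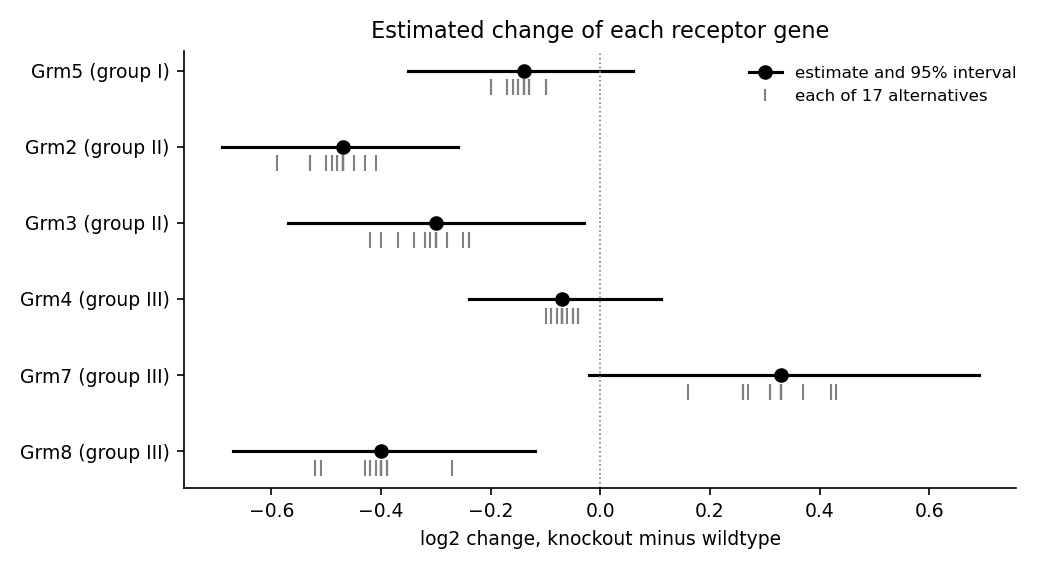
Log2 change, knockout minus wildtype (horizontal axis), of the 6 receptor genes with 95% intervals; grey ticks give the estimate under each of the 17 alternatives. Every tick of Grm2, Grm3, Grm4, Grm5 and Grm8 lies below 0 and every tick of Grm7 above 0, and the intervals of Grm2, Grm3 and Grm8 do not reach 0.

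Knockout 2 was the highest of the 3 knockout arrays for 5 of the 6 receptor genes, Grm4 being the exception, and for 40.7% of all tested genes. Knockout 2 was lens-rich and also had the highest Atrx value of the knockout arrays. Without both lens-rich arrays the log2 changes were -0.59 for Grm2, -0.52 for Grm8, -0.40 for Grm3, -0.15 for Grm5, -0.04 for Grm4 and 0.26 for Grm7. The estimates of Grm2, Grm8 and Grm3 were thus larger in size without the 2 lens-rich arrays than with them, although with 2 arrays left per group none of the 6 genes was called (adjusted p = 0.103 for Grm2). With the lens list mean as a covariate the log2 change was -0.47 for Grm2, -0.39 for Grm8, -0.28 for Grm3 and 0.37 for Grm7.

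Differences between receptor probe sets within an array remove whatever moved both of them on that array; their absolute size depends on the probes and carries no meaning for abundance. The Grm2 minus Grm7 difference was 0.01, 0.59 and 0.35 on the wildtype arrays and -0.36, -0.71 and -0.39 on the knockout arrays. It was lower on every knockout array, by 0.81 on average (exact permutation p = 0.1, 0.17 after adjustment over 15 pairs). The Grm7 minus Grm8 difference was 0.65, 0.30 and 0.36 in wildtype and 0.96, 1.29 and 1.25 in knockout. It was higher on every knockout array, by 0.73 (exact permutation p = 0.1, adjusted 0.17), and the shift was larger than the standard deviations of 0.18 and 0.19 within knockout and wildtype. Knockout and wildtype overlapped for Grm2 minus Grm8 (-0.07, exact permutation p = 0.5) and for Grm2 minus Grm3 (-0.17, exact permutation p = 0.5). Of the 15 pairs 9 had groups that did not overlap, and every pair with Grm7 was among them. The share without overlap over pairs of all tested genes was not counted, so this count has nothing to be read against. Grm7 alone had a positive change, so its separation from Grm2 and Grm8 follows largely from their single changes and adds no independent support. The smallest p that 3 against 3 arrays allow is 0.1, so no pair could pass a threshold of 0.05.

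**Figure D3:**
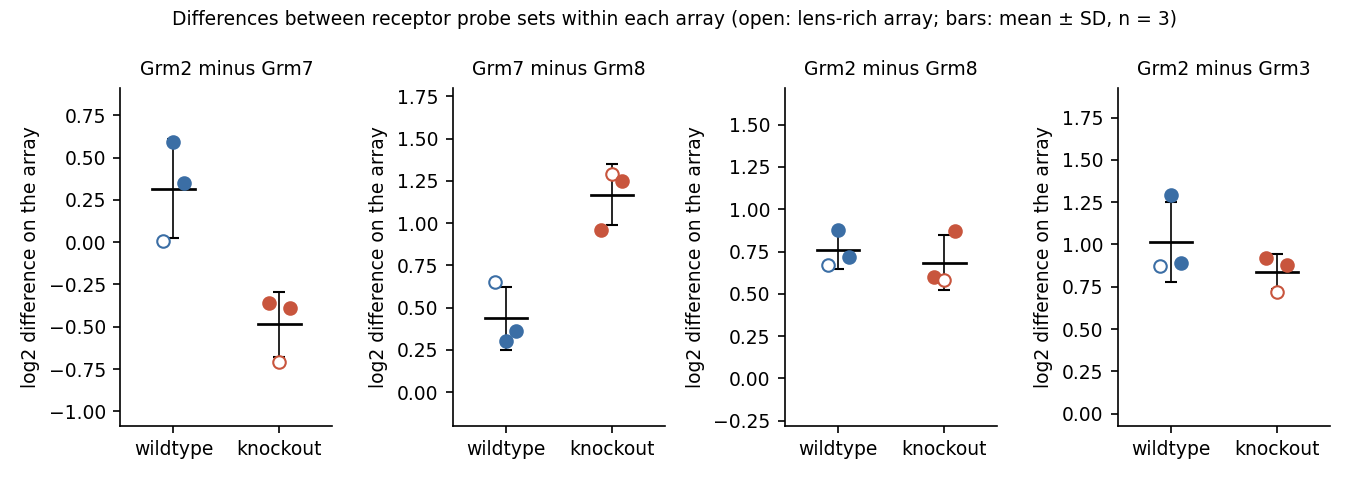
Log2 difference between a pair of receptor probe sets on each array (vertical axes, each spanning 2 log2 units) for 3 wildtype and 3 knockout samples, with mean ± SD and open points for lens-rich arrays. Grm2 minus Grm7 and Grm7 minus Grm8 separate the groups, while Grm2 minus Grm8 and Grm2 minus Grm3 overlap. Of all 15 pairs, 9 separate the groups, and the share over pairs of all tested genes was not counted.

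Among the receptors, the values of Grm2 and Grm8 had a Pearson r of 0.89 over the 6 arrays, those of Grm3 and Grm8 of 0.86 and those of Grm3 and Grm5 of 0.91, while Grm2 and Grm7 had an r of -0.54. These values describe 6 points that share arrays and, in part, a difference between the 2 genotypes. By the same measure the tested genes most alike to Grm2 were Rap1gap (r = 0.994), which inactivates the small GTPase Rap1, the kinase gene Cdk18 (0.993) and Hid1 (0.992). Cdk18 had a log2 change of -0.63 and an adjusted p of 0.0503 in limma's test. Those most alike to Grm8 were Prkca (0.998) and Prkce (0.997), which encode protein kinase C isoforms, and Map1a (0.994), which encodes a microtubule-associated protein. Those most alike to Grm3 were Anapc1 (0.998), Srgap3 (0.997) and Mtus2 (0.996), and those most alike to Grm5 were Fto (0.988), an RNA demethylase gene, Prr36 (0.976) and Irak1 (0.974). Pigc (0.998), Slc25a53 (0.998) and Car9 (0.987) were most alike to Grm4, and Mettl8 (0.989), Scarb2 (0.987) and Zfp248 (0.985) to Grm7. With 6 arrays and 15619 genes, values of r of at least 0.974 were found for each of the 6 receptors, and none of these 18 genes was called between the genotypes.

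The genes that carry the receptors' signal were counted in 5 lists with 75 entries, of which 66 were tested, 2 were too dim and 7 were not analysed here. None of the 66 passed the test over all genes (limma, adjusted p under 0.05). At an unadjusted p under 0.05 there were 9 lower and 4 higher genes, 19.7% of the 66 beside 13.5% of all tested genes. The log2 change was below 0 for 68.2% of the 66, with a median of -0.08.

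Effectors of the group I receptor had a median log2 change of -0.06, with 10 of 15 tested genes below 0. Itpr3, which encodes an inositol trisphosphate receptor of the endoplasmic reticulum, was at 5.33, 5.46 and 5.45 in wildtype and 5.82, 5.90 and 5.78 in knockout. The groups were apart with knockout the higher (log2 change 0.42, SE 0.077), and the adjusted p of 0.0552 in limma's test lay just outside the threshold; with arrays centred on their median it was 0.0486. With the mean of the gene's probe sets in place of the brightest one, the log2 change of Itpr3 was 0.18 (adjusted p = 0.353). Trpc4, a cation channel gene, had a log2 change of -0.37 (adjusted p = 0.163) and Prkca one of -0.38 (adjusted p = 0.232). Prkca is also a common marker of rod bipolar cells, and its values of 9.61, 9.67 and 9.64 in wildtype and 9.28, 9.50 and 9.01 in knockout had the same order of arrays within the knockout group as Grm8. Grm2, Grm5 and Grm7 had this order too, and knockout 2 was the highest knockout array for 40.7% of all tested genes.

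Of 18 tested effectors of the group II and III receptors 11 were below 0, none had an unadjusted p under 0.05, and the median log2 change was -0.05. Gnb4, a G protein beta subunit gene, was at 0.21 (95% interval -0.01 to 0.44), and the subunits of G protein-gated potassium channels Kcnj5 and Kcnj9 were at -0.19 and -0.23. Without knockout 2 the value of Kcnj5 was -0.12, and that of Kcnj9 was -0.11 without wildtype 1 and -0.06 without both lens-rich arrays. Among regulators of the receptors 9 of 11 tested genes were below 0 (median -0.09). Ncdn, which encodes the mGluR5-binding protein norbin, had a log2 change of -0.27 (adjusted p = 0.195), and Rgs8 and Rgs17, which encode proteins that speed GTP hydrolysis on Gi/o subunits, had log2 changes of -0.36 and 0.22 (adjusted p = 0.214 and 0.302). The knockout values of Rgs17 all lay above its wildtype values, and those of Ncdn and Rgs8 all lay below.

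Scaffold genes had a median log2 change of -0.12, with 12 of 17 tested genes below 0. Siah1a, a ubiquitin ligase gene whose product binds group I receptors, was higher in knockout (log2 change 0.35, adjusted p = 0.157), and the postsynaptic scaffold genes Shank1 and Dlgap4 were lower (-0.27 and -0.30, adjusted p = 0.263 and 0.301). Of the partners that bind group III receptors across the synapse, Elfn1 had wildtype values of 8.46, 8.61 and 8.54 and knockout values of 8.71, 8.74 and 8.74. Elfn2 had wildtype values of 7.58, 7.60 and 7.53 and knockout values of 7.35, 7.36 and 7.22. Neither gene's groups overlapped, with Elfn1 higher (log2 change 0.19, adjusted p = 0.314) and Elfn2 lower (-0.26, adjusted p = 0.191) in knockout. Rimkla, which encodes a synthase of NAAG, was at -0.18 (adjusted p = 0.416).

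The estimate for mGluR6, the postsynaptic receptor of ON bipolar cells, lay near 0. For Grm6 the wildtype mean was 8.86 ± 0.08 and the knockout mean 8.83 ± 0.06 (SD, n = 3 each), a log2 change of -0.02 with a 95% interval of -0.21 to 0.16; the sign of this estimate turned without wildtype 2 (0.02).

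Marker genes of the retinal cell classes were read beside the receptors. In the starburst amacrine list 2 of 7 tested genes fell and none rose; 5 were below 0 and 2, Sox2 (0.06) and Megf10 (0.04), above, with a list median of -0.15. Slc5a7, the choline transporter of cholinergic neurons, went from 7.08, 6.82 and 7.14 in wildtype to 5.61, 5.60 and 5.16 in knockout (log2 change -1.56, SE 0.14, adjusted p = 0.00376 in limma's test). Chat, the enzyme that makes acetylcholine, fell by 0.62 on the log2 scale (adjusted p = 0.0138), while Slc18a3, the vesicular acetylcholine transporter, was at -0.34 (adjusted p = 0.281). The list mean was 6.58, 6.59 and 6.67 on the wildtype arrays and 6.26, 6.28 and 6.13 on the knockout arrays, and the log2 of the summed linear values was 9.48 to 9.57 in wildtype and 9.14 to 9.35 in knockout. Like Grm2, the list was lower on each knockout array; the part of these cells in the Grm2 values was not tested.

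In the list of other amacrine markers 3 of 8 tested genes fell, none rose and all 8 were below 0 (median -0.45). Slc17a8, a vesicular glutamate transporter, fell by 0.78 on the log2 scale, Gad1, which makes GABA, by 0.68 and the glycine transporter Slc6a5 by 0.58 (adjusted p = 0.0162, 0.0172 and 0.0481 in limma's test). The list mean was 8.14, 8.19 and 8.23 in wildtype and 7.69, 7.93 and 7.59 in knockout, with knockout 2 again the highest of the knockout arrays; the log2 of the summed values was 11.83 to 11.87 in wildtype and 11.39 to 11.62 in knockout. Chat (adjusted p from 0.0549 to 0.0928) and Gad1 (0.0742 to 0.107) were no longer called when knockout 1, knockout 3, wildtype 2 or wildtype 3 was left out. For Slc17a8 (0.0584 to 0.0911) and Slc6a5 (0.135 to 0.197) this held for each array except knockout 2. Slc5a7 was called whichever array was left out. With all probe sets tested, Chat, Slc17a8, Gad1 and Slc6a5 were not called (adjusted p = 0.0525, 0.0626, 0.0672 and 0.139 in limma's test). With the replicate block Gad1 (0.0518) and Slc6a5 (0.11) were not called, and Slc6a5 also missed the threshold with no filter on dim probe sets (0.122) and with the lens list mean as a covariate (0.0676). Without both lens-rich arrays Slc5a7, Slc17a8 and Gad1 were called (log2 changes -1.60, -0.90 and -0.81), and Chat and Slc6a5 were not (both at -0.71, adjusted p = 0.0571 and 0.0586).

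Horizontal cell markers had no called gene and a median log2 change of -0.13, with Onecut1 at -0.38 (adjusted p = 0.0549), Prox1 at -0.40 and Onecut3 at -0.30. Bipolar cell markers had 8 of 10 genes above 0 and none called (median 0.03), with Scgn at 0.39, Otx2 at 0.17 and Tacr3 at -0.19. Ganglion cell markers had 8 of 9 genes below 0 and none called (median -0.06), with Nefh at -0.40 (adjusted p = 0.0968), Nefm at -0.27 and Sncg at 0.28. Sncg was at 11.58 on knockout 1 and at most at 11.02 on the other knockout arrays, and its log2 change was 0.09 without knockout 1. The list means of bipolar markers were 8.56, 8.64 and 8.65 in wildtype and 8.66, 8.68 and 8.62 in knockout, so these means overlapped. By the log2 of the summed values the bipolar groups did not overlap. These values were 12.18 to 12.27 in wildtype and 12.28 to 12.32 in knockout. The list means of horizontal markers were 7.32, 7.36 and 7.38 in wildtype and 7.28, 7.19 and 7.06 in knockout. For ganglion markers they were 8.90, 8.90 and 8.94 in wildtype and 8.85, 8.87 and 8.75 in knockout. The list means of horizontal and ganglion markers, like those of both amacrine lists, were thus lower on each knockout array. Unlike in the amacrine lists, the log2 of the summed values overlapped between the groups. It was 10.85 to 10.94 in wildtype and 10.58 to 10.89 in knockout for horizontal markers. For ganglion markers it was 12.81 to 12.88 in wildtype and 12.77 to 13.00 in knockout. Of the photoreceptor markers, none of 6 tested rod genes and none of 8 tested cone genes was called, with medians of 0.04 and -0.13. How far any of these cell classes contributes to the receptor values was not tested.

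**Figure D4:**
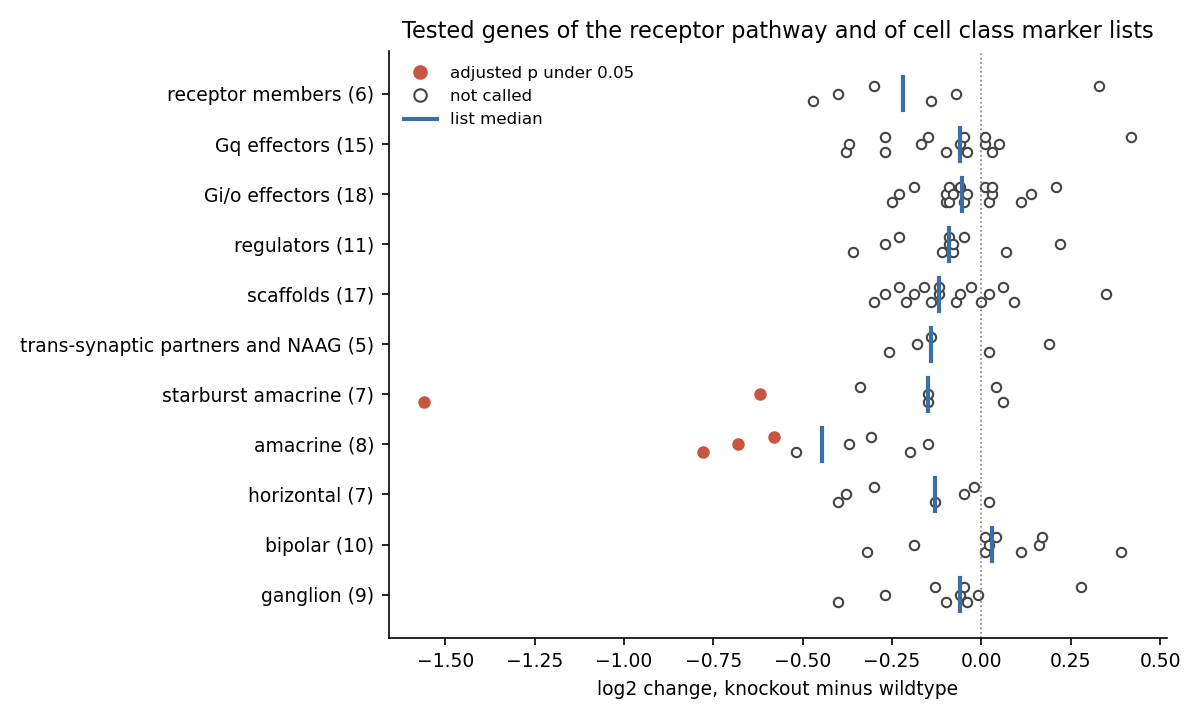
Log2 change, knockout minus wildtype (horizontal axis), of each tested gene in the receptor group, the 5 pathway lists and 5 marker lists, with the number of tested genes in brackets and blue bars for list medians. Filled points are called genes, found among these lists only in the starburst amacrine (2) and amacrine (3) rows; the receptor median lies at -0.22.

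**Figure D5:**
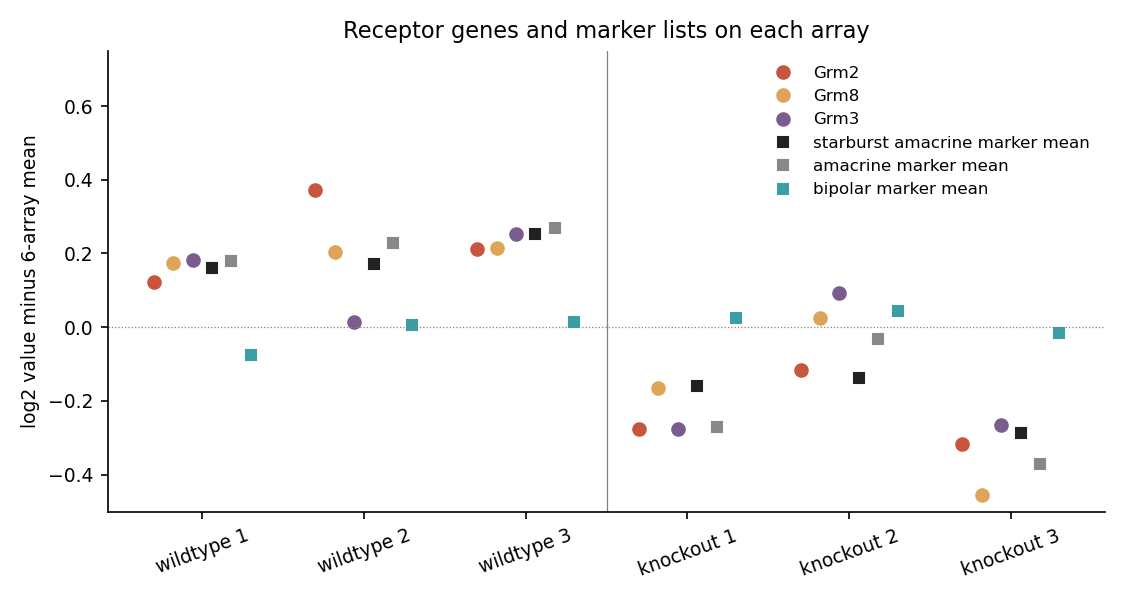
Log2 values of Grm2, Grm8 and Grm3 and mean log2 values of 3 marker lists on each array (horizontal axis), each minus its own mean over the 6 arrays (vertical axis). Grm2, Grm8 and both amacrine list means are higher on every wildtype array than on any knockout array, and the bipolar list mean shows no such split. The log2 of the summed bipolar values, not drawn, is higher on every knockout array than on any wildtype array. The horizontal, ganglion and scaffold list means, not drawn, have the same split as the amacrine lists. By the log2 of the summed values the horizontal and ganglion lists overlap.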

How the data were processed

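Each deposited value is the log2 expression of 1 probe set on 1 array, for which the submitters' processing notes name RMA; its version, the software and the array's genome build were not given in the sources used here. RMA corrects background, quantile-normalizes arrays and summarises probes, so a change common to all RNA is not seen and folds of dim probe sets are compressed. Of 41345 probe sets, 23521 had 1 symbol, 1814 several and 16010 none in the annotation used here; 23328 of the first matched RefSeq of GRCm38.p6 by gene identifier, which supplied current names. A gene was represented by its passing probe set of highest mean. Genotype was the only term in limma 3.58.1 (R 4.3.3), 2-sided, adjusted over 15619 genes; SE and intervals are moderated. Each sample is labelled as retina of 1 mouse. Levels of different probe sets were not compared. The procedure was checked on simulated data. There, 43 of 100 genes shifted by 0.5 log2 units were called, 87 of 100 shifted by 1 and 3 of 15419 not shifted. In this simulation a shift of 0.5 was thus missed more often than called.

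The members and lists were chosen with earlier results of these data known. Named genes are the 6 receptors, up to 3 genes of smallest p in each pathway list and in the starburst, amacrine, horizontal, bipolar and ganglion lists, the 3 genes most alike to each receptor and 2 lens genes; Grm6, Atrx and list totals were added for reference. Alternatives were other filters, normalizations, spread models, probe set rules, each array left out, lens terms and the replicate number as a block. The replicate numbers are not stated to pair animals, so the block is an alternative only. Same-numbered arrays did not deviate together over all tested genes, lens genes included. The lens-rich arrays carry different numbers, so this check cannot settle whether animals were paired. Figures used matplotlib 3.10.9.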

Additional observations from a re-analysis of the deposited data

How the results depend on the processing

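All alternatives were listed beforehand, with earlier results of these data known. Each of the 6 receptor genes kept its direction in all 17, and 100 of 102 results kept their side of the threshold. The exceptions are Grm2 with a log2 floor of 6 and with an intensity trend and robust spread, where the count of called receptor genes was 1 instead of 0. Under the floor fewer genes are tested, and the unadjusted p of Grm2 in limma's test was also lower (0.000573 against 0.000937). The cause was not tested in either setting. The count at an unadjusted p under 0.05 ran from 2 to 4, and the median log2 change from -0.31 to -0.17. Leaving out 1 array at a time gave 0 called receptor genes, 2 to 3 at an unadjusted p under 0.05 and a median of -0.31 to -0.17. The count of called pathway genes was 1, Itpr3, with arrays centred on their median, and 0 otherwise, also with 1 array left out; Itpr3 had no value with a floor of 6. With the replicate block the receptor median was -0.22, no receptor or pathway gene was called and 2 receptors had an unadjusted p under 0.05; same-numbered arrays had correlations of deviations of -0.27, -0.38 and -0.06, and 0 of 6 arrays correlated best with its own number. The block left 68 called genes in all, against 129. Of 864 results of 51 other genes (Grm6, list genes, genes alike to a receptor, Atrx and 2 lens genes), 28 lost a call, 11 gained one and 9 reversed. Grm6 turned from -0.02 to 0.02 without wildtype 2. Cryaa and Cryba1, at 0.20 and 0.16, turned to -0.93 and -1.20 with array weights, and with 1 array left out ran from -1.80 to 2.64 and from -2.25 to 3.04, below 0 without knockout 2, wildtype 2 or wildtype 3. Atrx was called with an intensity trend and robust spread (adjusted p = 0.0386). Calls over all genes ran from 25 without wildtype 2 to 282 with an intensity trend and robust spread. No probe set near background can show the full size of a change. How far above its background each receptor probe set lies was not measured. Values of Grm3, Grm4 and Grm8 lay between 5.99 and 6.69, beside array medians of 5.57 to 5.64, so this limit may hold for them too.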
